A study of Zea mays with 8 samples.

Results

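Drought-stressed maize ovaries were compared with drought-stressed leaf bases of the same inbred line, B73, over the genes listed in both deposited expression tables. The comparison rests on 4 of the 8 libraries of the series, 2 from ovaries under drought and 2 from the basal leaf meristem under drought, and the other 4 are the well-watered libraries of the same tissues. Plants were raised in a greenhouse until silks emerged. In the drought groups irrigation had been withheld for 2 to 3 days before hand pollination, and all tissue was taken 24 hours after pollination. Leaf tissue came from the bases of the 3 youngest leaves. All groups share the B73 genotype and carry no transgene or mutation named in the labels. There are 26380 genes in the ovary table, 25873 in that of the leaf and 23586 in both, and the 22086 of these with a mean of at least 1 FPKM over the 8 libraries were analysed. FPKM is a transcript level corrected for gene length and library size. The protocol speaks of biological replicates but the labels do not say that the libraries came from separate plants, and a p-value here measures only how far the libraries of a group spread.

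In maize, water deficit around pollination is known to arrest the young ovary, while leaf bases hold the dividing and elongating cells that feed the blade. Abscisic acid, the hormone of water deficit, induces dehydrins and type 2C protein phosphatases and restrains growth. Growth itself draws on histones for new chromatin, on tubulins, on wall-loosening expansins and on ribosomal proteins.

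The 2 tables were made separately, so tissue and table cannot be told apart in a level set across them, and such differences are given with no p-value. Each library was scaled to a common upper quartile, with factors of 0.926 to 1.09, and differences are ovary minus leaf on the log2(scaled FPKM + 1) scale, where 1 is 2-fold. That scale understates differences of low genes. A gene was called higher in a tissue when both of its libraries lay above both of the other tissue and the difference was at least 1. What was tested is the difference under drought minus the difference in the well-watered controls (limma over all 8 libraries, Benjamini-Hochberg over 22086 genes). This drought minus control difference equals the drought change in the ovary minus that in the leaf. A factor common to a whole table therefore largely drops out of it, less so for low genes because of the added 1. The scaling of single libraries does not drop out. A tissue difference was counted as absent in the controls when it was called under drought, was under 1 in that direction in the controls, and had an adjusted p under 0.05 for the drought minus control difference.

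Libraries of a group correlated at 0.962 to 0.988 across genes, which are not independent replicates. Leaf control 2 stood apart from leaf control 1, with 1143 genes at least 2-fold apart (5.18%), 910 of them higher in control 1; in the other groups 210 to 532 genes were that far apart. Ovary control 2 summed to 9212839 FPKM against 661161 to 843595 in the other libraries. The depth of the libraries is unknown, and among tested genes 694 share all 8 values with another gene ID, so that such IDs are 1 measurement.

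Marker genes set the ovary and leaf libraries apart, and the list fixed to mark the leaf meristem summed higher in the ovary. The 31 photosynthesis genes in both tables summed to 31488 and 35982 FPKM in the droughted leaf libraries, to 630 and 686 FPKM in the droughted ovary, and to 1141 and 1819.5 FPKM in the ovary controls. The 15 KNOX and leaf patterning genes in both tables, fixed as meristem and leaf markers, summed to 161 and 179 FPKM in the droughted leaf and to 503 and 693 FPKM in the droughted ovary. Of 22 such genes 7 are listed in the ovary table alone, among them the meristem genes KN-1 (GRMZM2G017087), at 24.8 and 16.8 FPKM in the droughted ovary, and gnarley1 (GRMZM2G452178), at 18.5 and 14.1 FPKM. This patterning list mixes knox, lg and yab symbols, and YAB3 (GRMZM2G106204) alone held 72.9 and 110 FPKM in the droughted ovary. The sums of the list therefore do not decide whether the leaf samples held meristem. Photosynthesis transcripts were abundant in the leaf samples, which are called leaf libraries here. Of 28 floral MADS-box genes, which set the identity of floral organs, 16 are listed in the ovary table alone and 1 in the leaf table alone. The 11 in both tables summed to 565 and 605 FPKM in the droughted ovary and to 342 FPKM in each droughted leaf library. These sums leave out the 16 listed in the ovary table alone. The highest of those under drought was MADS4 (GRMZM2G097059), at 953 and 958 FPKM in the droughted ovary. The 4 genes listed by symbol as pollen and anther markers summed to 275 and 298 FPKM in the droughted ovary. In the droughted leaf they summed to 921 and 980.5 FPKM, most of it DBB11 (GRMZM5G877388, 608 and 559.8) and PRO4 (GRMZM2G108780, 337 and 322). These sums are not read as pollen in the leaf. The 3 endosperm markers summed to 20.0 and 21.7 against 55.0 and 62.2 FPKM. None of these pollen, endosperm or floral genes was at 0 in both libraries of a group. The part of cell mixture in the results was not tested, and in bulk tissue fewer cells of a type and less RNA per cell cannot be told apart.

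Under drought 4323 genes were higher in the ovary (19.6% of those analysed) and 4693 higher in the leaf (21.2%). In the controls these numbers were 4535 (20.5%) and 3815 (17.3%). These shares of all genes are the background for the list counts given below. Which tissue had more calls under drought depended on the scaling. The ovary and leaf counts under drought were 4484 and 4626 with median scaling and 5271 and 4164 without scaling. They were 4765 and 4307 after quantile normalization and 7073 and 5620 on percentile ranks. In the controls the ovary had more calls under each of these settings. Of the 9016 genes called under drought, 4095 (45.4%) had the same call in the controls, 3886 (43.1%) were absent in the controls, and 1035 (11.5%) met neither rule. Those present in both conditions were 1706 genes higher in the ovary (7.72%) and 2389 higher in the leaf (10.8%). Those absent in the controls were divided almost evenly, with 1961 higher in the ovary (8.88%) and 1925 higher in the leaf (8.72%). Within them, 189 genes (0.856%) were higher in the droughted ovary but called higher in the leaf in the controls, and 476 (2.16%) the other way. Genes at 0 in both libraries of a group made up 58 of the 189 and 83 of the 476. They were 313 of all 3886 absent in the controls, and such a 0 can be a failed estimate.

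The drought minus control difference passed limma for 10462 genes, 4704 positive (21.3%) and 5758 negative (26.1%), with 12186 at an unadjusted p under 0.05. Which sign was the more frequent depended on the scaling, as given below. The median absolute drought change on the log2 scale was 0.63 for ovary libraries against 0.25 for leaf libraries. Of the 3886 tissue differences absent in the controls, 3420 had the larger drought change in the ovary. The same share over all genes was not counted, and by the medians above the ovary change was the larger there too. A further 2276 genes (10.3%) were higher in the ovary in the controls and lost that difference under drought, as did 1059 (4.79%) higher in the leaf.

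**Figure D1:**
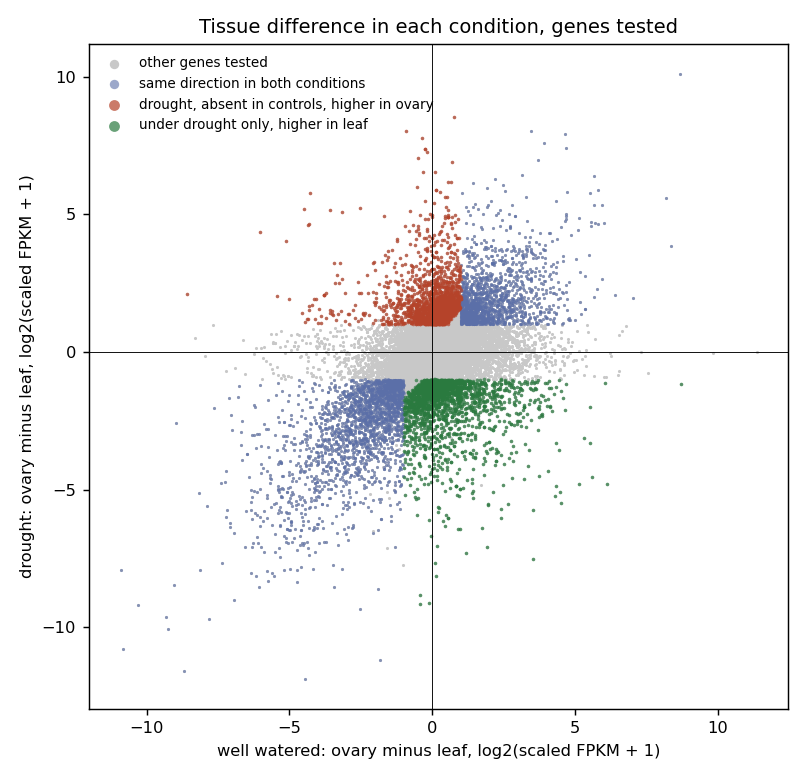
Tissue difference of each of 22086 genes in the well-watered controls (horizontal axis) and under drought (vertical axis), both ovary minus leaf in log2(scaled FPKM + 1). Blue points are the 4095 genes called the same way in both conditions, red points the 1961 and green points the 1925 genes whose drought difference was absent in the controls; genes at 0 in a group are included and grey points are all other genes.

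The largest tissue differences under drought were those of leaf photosynthesis genes, and these were present in the controls too. The chlorophyll-binding protein gene cab-m1 (GRMZM2G351977) stood at 0.808 and 1.08 FPKM in the droughted ovary and 5164 and 5776 FPKM in the droughted leaf, a difference of -11.59 ± 0.18 (SE, n = 2 libraries per group) against -8.70 in the controls. The C4 carboxylase gene pep1 (GRMZM2G083841) stood at 0.0636 and 0.191 against 1827 and 1873 FPKM, with a difference of -10.78 ± 0.18 under drought and -10.83 in the controls. Both genes separated the tissues in every library, and for pep1 the drought minus control difference did not pass limma (adjusted p = 0.884). Of the 31 photosynthesis genes 26 were higher in the leaf under drought and 26 in the controls, none was absent in the controls, and the list's median difference went from -4.01 to -6.01. On percentile ranks 7 of the leaf calls were absent in the controls. Beside it the median of all genes analysed was 0.18 in the controls and 0.11 under drought. The photosystem I gene psaH (GRMZM2G451224) gave -10.05 ± 0.33 and -9.26. CP24 (GRMZM2G092427), of the antenna of photosystem II, gave -7.89 ± 0.22 under drought and -3.15 in the controls. It stood at 77.3 and 118 FPKM in the ovary controls and at 4.31 and 5.01 FPKM in the droughted ovary. The drought minus control difference of CP24 passed limma at -4.74 (adjusted p = 5.1e-05).

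The gene hsbp1 (GRMZM2G085924), named for a heat shock factor binding protein, had a leaf-side difference that grew most among the 8 named by size. It stood at 2.94 and 2.91 FPKM in the droughted ovary and 1318 and 1439.7 FPKM in the droughted leaf. The ovary controls, at 277 and 305 FPKM, lay far above the droughted ovary and below both leaf controls, at 1191 and 797 FPKM. The difference was -8.61 ± 0.19 under drought and -1.89 in the controls, and the drought minus control difference was -6.72 (limma adjusted p = 4.29e-06).

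On the ovary side, the largest differences were also present in the controls, except that of the cytokinin gene ciszog1 given below. The homeobox gene gt1 (GRMZM2G005624, grassy tillers), which restrains the outgrowth of buds and floral organs, stood at 241 and 292 FPKM in the droughted ovary and 0.564 and 0.309 FPKM in the droughted leaf. Its controls stood at 57.7 and 30.8 FPKM in the ovary and 0.719 and 0.436 FPKM in the leaf. Every ovary library was above every leaf library, and the difference was 7.42 ± 0.27 under drought and 4.69 in the controls (drought minus control 2.73, limma adjusted p = 0.00134). The asparagine synthetase gene asn3 (GRMZM2G053669) had 267 and 631 FPKM in the droughted ovary against 2.35 and 4.43 FPKM in the droughted leaf, a difference of 6.43 ± 0.44, and 3.15 in the controls. The chitinase gene chiA (GRMZM2G051943), of defence, had 754 and 2035 FPKM against 18.2 and 7.95 FPKM. The difference of chiA was 6.39 ± 0.63 under drought and 5.67 in the controls, and the drought minus control difference did not pass limma (adjusted p = 0.532). ALDH12 (GRMZM2G090245) gave the largest ovary difference, 7.90 ± 1.05, on libraries of 219.7 and 620.2 FPKM against 0.737 and 0.170 FPKM. Its ovary controls were far apart, at 188 and 12.9 FPKM, and its drought minus control difference of 3.27 did not pass limma (adjusted p = 0.106).

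Most floral MADS-box genes in both tables kept their tissue difference, and patterning genes did so in part. Of the 11 MADS-box genes 6 were higher in the ovary and 2 in the leaf under drought, against 7 and 2 in the controls. None was absent in the controls, 1 lost its ovary-side difference, and the medians were 2.24 and 2.31. MADS37 (GRMZM2G052890) had 49.9 and 63.0 FPKM in the droughted ovary and 0.394 and 0.238 FPKM in the droughted leaf (difference 5.33 ± 0.17, controls 5.96). tunicate1 (GRMZM2G370777), whose ectopic expression encloses kernels in glumes, ran the other way at 3.66 and 4.70 against 128 and 110.3 FPKM (difference -4.70 ± 0.17, controls -4.89). Of the 15 KNOX and leaf patterning genes 10 were higher in the ovary under drought and 9 in the controls, and 2 of the 10 were absent in the controls. In both conditions 8 were higher in the ovary, and 1 lost an ovary-side difference. The 2 higher in the leaf in the controls both lost that difference, and 1 is left when genes at 0 are left out.

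Among the 8 named genes whose ovary-side difference was absent in the controls, dhn1 held the highest level. The dehydrin gene dhn1 (GRMZM2G079440), a protectant that abscisic acid induces, stood at 2559 and 2094 FPKM in the droughted ovary and 47.4 and 129 FPKM in the droughted leaf. In the controls the tissues overlapped, at 8.81 and 22.3 FPKM in the ovary and 17.2 and 4.98 FPKM in the leaf. The difference was 4.69 ± 0.65 under drought and 0.40 in the controls (limma adjusted p = 0.00776 for the drought minus control difference). On within-library percentile ranks the call was not met (adjusted p = 0.912), and no dehydrin or LEA gene was called in either condition. Without leaf control 1 dhn1 was called higher in the ovary in the controls as well. Of the other 3 dehydrin and LEA genes, DIP1 (GRMZM2G010302) was also absent in the controls, at 308 and 316 against 88.9 and 84.3 FPKM. dehydrin3 (GRMZM2G373522) lost a leaf-side difference, though not without leaf control 2 or without ovary control 2: it had 162 and 184 FPKM in the leaf controls against 84.1 and 80.8 FPKM in the ovary controls, and 396 and 401 against 461 and 320 FPKM under drought. These 2 genes lie outside the rule for naming and were picked after their values were seen.

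The metallothionein-like gene mtl2 (GRMZM2G402564), of metal binding, changed sides. It stood at 331 and 350.5 FPKM in the droughted ovary, 62.0 and 45.7 FPKM in the droughted leaf, 2.62 and 4.31 FPKM in the ovary controls and 11.0 and 16.5 FPKM in the leaf controls. In both conditions the tissues did not overlap. The difference was 2.48 ± 0.27 under drought and -1.85 in the controls (limma adjusted p = 0.000222 for the drought minus control difference).

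The same reversal was measured for sat1 (GRMZM2G069203), with the largest positive drought minus control difference of the named genes. It had 64.5 and 106 FPKM in the droughted ovary against 18.8 and 18.2 FPKM in the droughted leaf, and 1.84 and 1.16 FPKM in the ovary controls against 30.6 and 45.3 FPKM in the leaf controls. The 2 ovary controls were the lowest libraries and the 2 droughted ovaries the highest, with differences of 1.93 ± 0.28 and -4.07 (limma adjusted p = 5.43e-05). RIP (GRMZM2G119705), named for a ribosome-inactivating protein, also changed sides. Its libraries held 385 and 538 FPKM against 106 and 122 FPKM under drought, and 34.6 and 9.86 FPKM against 82.9 and 57.5 FPKM in the controls. Its differences were 1.81 ± 0.47 and -1.98 (limma adjusted p = 0.00344, and 0.0752 on percentile ranks).

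**Figure D2:**
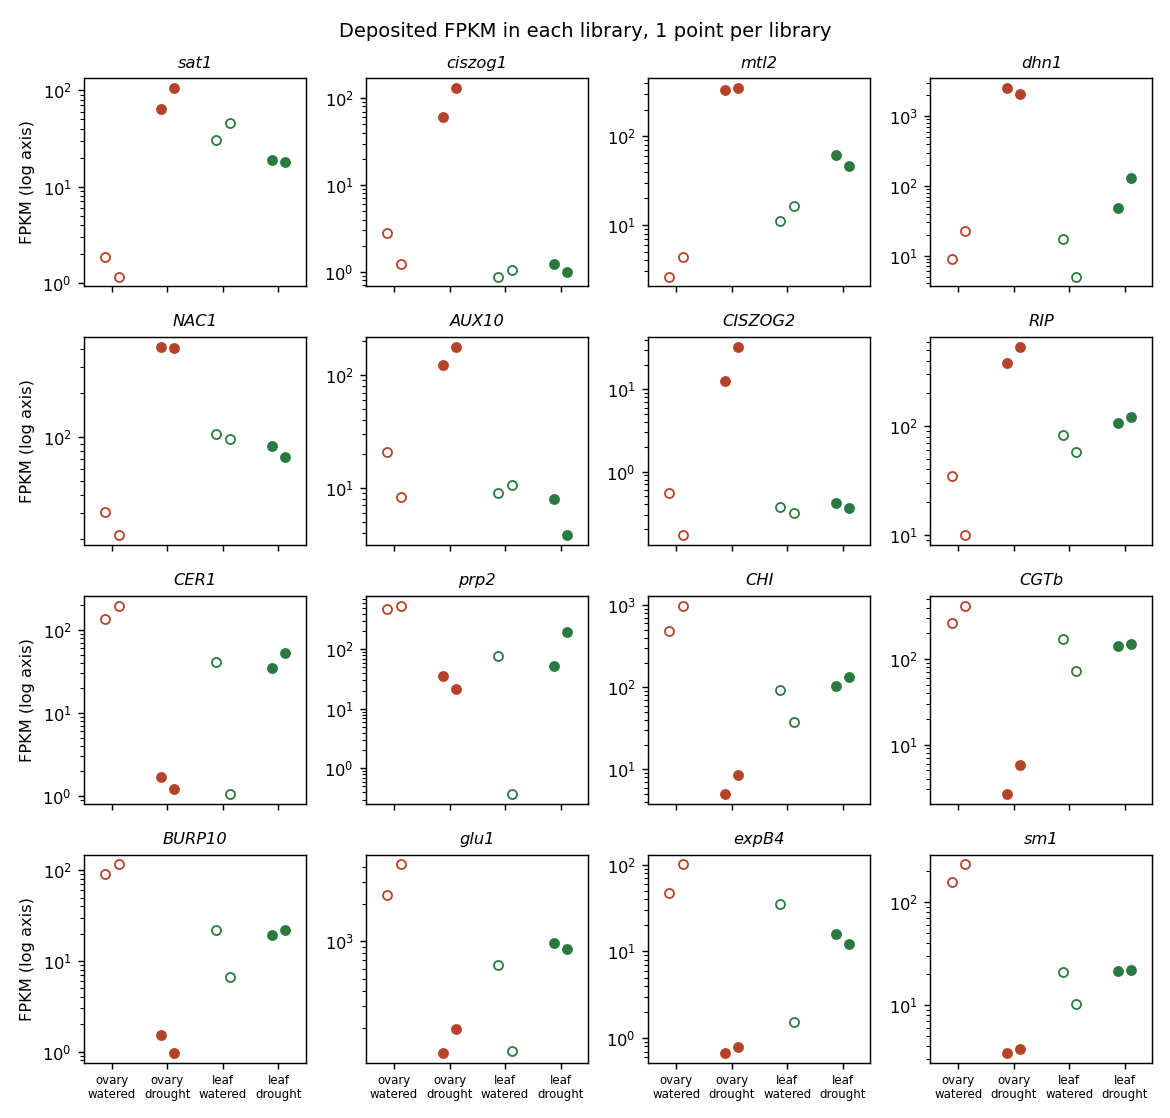
Deposited FPKM (log axis) of the 16 named genes whose drought difference was absent in the controls, 1 point per library, in ovary (red) and leaf (green) libraries, open when well watered and filled under drought. In the upper 8 panels the filled red points lie above the filled green ones, and in the lower 8 they lie under them while the open red points are the highest in each panel.

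NAC factors are plant transcription regulators, of which several act in stress and senescence. Of 18 analysed, 8 were higher in the ovary and 1 in the leaf under drought, against 5 and 6 in the controls, and 4 of the 8 were absent in the controls. NAC1 (GRMZM2G347043) stood at 415 and 408 FPKM in the droughted ovary and 86.6 and 72.4 FPKM in the droughted leaf. In the controls it was the other way round, with 30.6 and 21.1 FPKM in the ovary and 104 and 96.8 FPKM in the leaf. The difference was 2.18 ± 0.18 under drought and -2.09 in the controls (limma adjusted p = 3.05e-05). NAC20 (GRMZM2G180328) was higher in the ovary in both conditions, with 40.4 and 55.4 against 3.14 and 3.36 FPKM under drought (difference 3.35 ± 0.25, controls 2.39).

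Of 41 genes that make abscisic acid or relay its signal, 9 were higher in the ovary and 12 in the leaf under drought, against 7 and 12 in the controls; 6 of the ovary calls and 5 of the leaf calls were absent in the controls. Over all genes analysed 19.6% and 21.2% were called under drought, so the ovary count is near that background. The 3 with the largest differences were type 2C protein phosphatases, negative regulators of the hormone's signal, all higher in the droughted ovary. PP2C4 (GRMZM2G177386) had 339.7 and 361 FPKM in the droughted ovary against 34.1 FPKM in each droughted leaf library. Its controls lay close together, at 38.2 and 36.6 FPKM in the ovary and 21.7 and 22.7 FPKM in the leaf, and its difference was 3.15 ± 0.12 under drought and 0.58 in the controls (limma adjusted p = 4.83e-05). PP2C11 (GRMZM2G308615) had 31.6 and 37.1 against 1.52 and 1.74 FPKM, with differences of 3.60 ± 0.30 and 0.75 (limma adjusted p = 0.0017). PP2C2 (GRMZM2G134628), at 213 and 221 against 28.3 and 33.8 FPKM, was higher in the ovary in the controls too (2.60 ± 0.15 and 1.68). The drought minus control difference of PP2C2 passed limma at 0.92 (adjusted p = 0.0109) but was -8.23 percentile points on within-library ranks (adjusted p = 0.0783).

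Of the genes of cytokinin, the hormone that sustains cell division, 8 of 25 were higher in the ovary and 6 in the leaf under drought, against 2 and 7 in the controls. Of the 8, 6 were absent in the controls, against 8.88% of all genes analysed. Over all genes 19.6% and 21.2% were called under drought, so the leaf count is near that background. The ovary and leaf counts under drought were 10 and 5 without scaling and 12 and 7 on percentile ranks. ciszog1 (GRMZM2G168474), whose product attaches glucose to cis-zeatin, stood at 59.9 and 131 FPKM in the droughted ovary and between 0.884 and 2.81 FPKM in the other 6 libraries. Its difference was 5.26 ± 0.37 under drought and 0.48 in the controls (limma adjusted p = 0.000509). CISZOG2 (GRMZM2G110511), of the same family, had 12.6 and 33.0 FPKM in the droughted ovary and 0.167 to 0.547 FPKM in the other 6 libraries (3.84 ± 0.37 and -0.03, limma adjusted p = 0.00117). CKX4 (GRMZM5G817173), a cytokinin oxidase that degrades the hormone, had 88.7 and 106 FPKM against 2.64 and 5.24 FPKM in the droughted leaf. The difference of CKX4 was 4.20 ± 0.29 under drought and was already 1.46 in the controls. In all 3 genes the 2 droughted ovaries were the highest libraries.

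Several autophagy and senescence genes lost leaf-side differences and a few gained ovary-side ones. In the controls 9 of 20 were higher in the leaf and none in the ovary. Under drought 5 were higher in the ovary and 2 in the leaf, with 4 of the 5 absent in the controls and 7 of the 9 lost. Among all genes analysed 19.6% were higher in the ovary under drought, so that count is near the background. The background was 8.88% for ovary-side differences absent in the controls and 4.79% for lost leaf-side ones. One of the 7, Atg8b, was listed at 0 in both ovary controls. Atg7 (GRMZM2G005304), an activating enzyme of autophagosome formation, stood at 45.1 and 70.3 FPKM in the droughted ovary, 5.39 and 4.67 FPKM in the droughted leaf, 13.2 and 8.02 FPKM in the ovary controls and 6.76 and 7.70 FPKM in the leaf controls. Its difference was 3.09 ± 0.26 under drought and 0.33 in the controls (limma adjusted p = 0.00112). lls1 (GRMZM2G339563), of chlorophyll breakdown, changed sides, with 40.2 and 52.9 against 16.1 and 15.7 FPKM under drought (1.31 ± 0.16) and -1.28 in the controls. AUX10 (GRMZM2G057067), in the auxin list by its symbol, had 123 and 179 FPKM in the droughted ovary and 3.77 to 20.6 FPKM elsewhere (4.35 ± 0.43 and 0.27, limma adjusted p = 0.00165). Of all 32 auxin genes 5 were higher in the ovary and 13 in the leaf under drought, against 3 and 8 in the controls.

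Among differences absent in the controls and higher in the droughted leaf, the 8 genes named for the largest drought minus control difference, a choice that favours reversals, were all called higher in the ovary when well watered. Flavonoid and anthocyanin genes colour silks and tissues and screen light. Of 12 analysed, 9 were higher in the ovary and 1 in the leaf in the controls, while under drought none was higher in the ovary and 10 in the leaf. All 9 that were higher in the control ovary were higher in the leaf under drought. Without the 5 genes at 0 in both droughted ovaries, 7 were analysed, of which 4 were higher in the ovary in the controls, 5 higher in the leaf under drought and 4 absent in the controls. The list's median difference was 2.70 in the controls and -3.07 under drought, or -1.94 under drought without those 5 genes. CHI (GRMZM2G155329), a chalcone isomerase, stood at 4.98 and 8.45 FPKM in the droughted ovary, 104 and 133 FPKM in the droughted leaf, 484 and 989 FPKM in the ovary controls and 93.6 and 38.3 FPKM in the leaf controls. The difference was -4.14 ± 0.47 under drought and 3.36 in the controls (limma adjusted p = 0.000219). sm1 (GRMZM2G031311, salmon silk), of the synthesis of the silk flavone maysin, gave -2.47 ± 0.30 and 3.46 (limma adjusted p = 7.97e-05), on 3.43 and 3.74 against 21.5 and 22.0 FPKM under drought. CGTb (GRMZM2G383404) gave -5.05 ± 0.43 and 1.41 (limma adjusted p = 0.000278), on 2.62 and 5.75 against 142 and 149 FPKM. For CHI, sm1 and CGTb both droughted ovaries lay below every other library. Leaf control 2 was the lowest leaf library for each of them, at 38.3, 10.3 and 73.2 FPKM. f3h (GRMZM2G062396), a flavanone hydroxylase gene picked after its values were seen, was the member higher in the leaf in both conditions (-1.94 and -2.19).

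Expansin and cell wall genes gave like counts. Of 24, 14 were higher in the ovary and 2 in the leaf in the controls; under drought none was higher in the ovary and 17 in the leaf, of which 16 were absent in the controls. Without leaf control 2 the control counts were 10 and 2, and 15 were absent. The median difference was 1.30 in the controls and -2.50 under drought. The alpha-expansin gene expa1 (GRMZM2G339122) stood at 1.65 and 4.22 FPKM in the droughted ovary, 200 and 148 FPKM in the droughted leaf, 112 and 251 FPKM in the ovary controls and 312 and 361 FPKM in the leaf controls. Its difference was -5.69 ± 0.43 under drought and -1.15 in the controls. xth1 (GRMZM2G119783), of xyloglucan remodelling, had 0.693 and 0.764 against 40.2 and 33.9 FPKM under drought (-4.58 ± 0.62, controls -0.25, limma adjusted p = 0.00598). bk2 (GRMZM2G109326, brittle stalk), needed for stalk strength, had 0.201 and 0.0889 against 21.8 and 21.0 FPKM (-4.38 ± 0.23, controls -0.65, limma adjusted p = 0.000212). The beta-expansin gene expB4 (GRMZM2G154178) had 0.670 and 0.782 against 15.7 and 12.1 FPKM under drought, and 47.1 and 101 FPKM against 35.2 and 1.55 FPKM in the controls. The difference of expB4 was -3.22 ± 1.04 under drought and 2.74 in the controls; without leaf control 2 its drought minus control difference was -4.07 in place of -5.96, and it still passed limma (adjusted p = 0.00198).

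**Figure D3:**
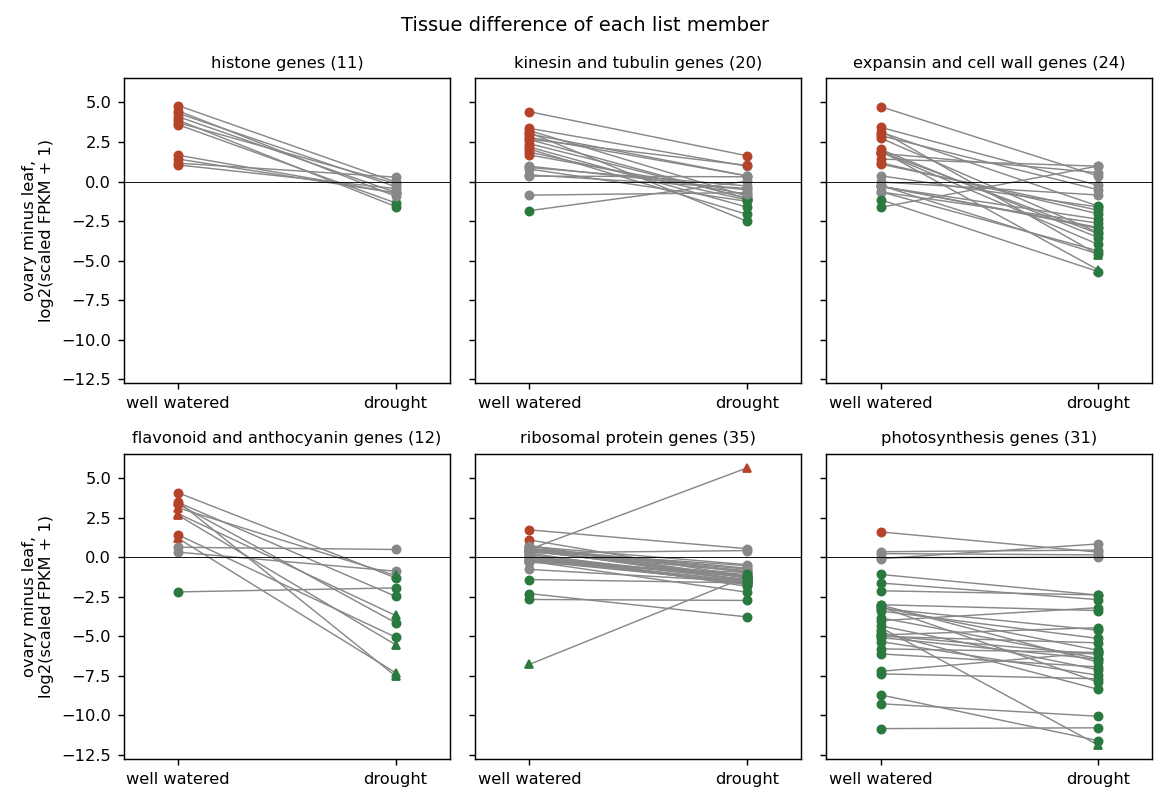
Tissue difference (ovary minus leaf, log2(scaled FPKM + 1)) of each member of 6 gene lists in the controls and under drought, with 1 line per gene. Red points were called higher in the ovary and green points higher in the leaf, grey points met neither rule, and triangles mark genes at 0 in both libraries of a group, whose height depends on the pseudocount.

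Leaf control 2 touches several of the other named genes. CER1 (GRMZM2G066578), of cuticular wax synthesis, stood at 1.67 and 1.21 FPKM in the droughted ovary, 34.9 and 52.8 FPKM in the droughted leaf and 136 and 197 FPKM in the ovary controls, but at 40.8 and 1.04 FPKM in the 2 leaf controls. Its difference was -4.31 ± 1.15 under drought and 4.04 in the controls, and its drought minus control difference of -8.35 became -6.18 without leaf control 2. A second gene of that symbol, GRMZM2G099097, is in the ovary table alone and went the other way. It stood at 19.9 and 9.6 FPKM in the ovary controls and 84.8 and 173 FPKM in the droughted ovary. prp2 (GRMZM2G102356) had 78.2 and 0.367 FPKM in the leaf controls, and 35.8 and 21.5 FPKM against 52.8 and 195 FPKM under drought (-2.01 ± 1.61). The drought minus control difference of prp2 was -7.52 (limma adjusted p = 0.029), -4.59 without leaf control 2 (adjusted p = 0.00765), and it did not pass when any 1 of 5 other libraries was left out (adjusted p = 0.0631 to 0.093). The beta-glucosidase gene glu1 (GRMZM2G016890), which releases defensive benzoxazinoids, had 125 and 197 against 963 and 868 FPKM under drought and 2364 and 4176 FPKM against 642 and 131 FPKM in the controls. Its differences were -2.71 ± 0.65 and 3.28, and without leaf control 2 its drought minus control difference was -4.90 in place of -5.99. BURP10 (GRMZM2G446170) gave -3.42 ± 0.44 and 2.82, on 1.53 and 0.962 against 19.5 and 22.1 FPKM under drought. Of the 3 lipid transfer and cuticle genes 2 were higher in the leaf under drought and 2 in the ovary in the controls.

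Tubulins build the microtubules and kinesins travel on them. Of 20 such genes 13 were higher in the ovary and 1 in the leaf in the controls, and 2 and 7 under drought, where the 7 were all absent in the controls; with unscaled FPKM the drought counts were 3 and 4. The list's median difference went from 2.12 to -0.62. tub6 (GRMZM2G071790), a beta-tubulin gene, had 23.8 and 18.5 against 109 and 112 FPKM under drought and 444 and 551 FPKM against 84.8 and 31.3 FPKM in the controls (-2.51 ± 0.39 and 3.09, limma adjusted p = 0.000317). The alpha-tubulin gene TUA2 (GRMZM2G153292) gave -2.07 ± 0.35 and 2.05, on 185 and 213 against 681 and 798 FPKM. TUB1 (GRMZM2G164696) was higher in the ovary in both conditions, by 1.63 ± 0.22 and 4.41.

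Ribosomal protein genes differed little between the tissues in the controls, where 2 of 35 were higher in the ovary and 4 in the leaf. Under drought 24 were higher in the leaf and 1 in the ovary. Of the 24, 20 were absent in the controls, or 17 without leaf control 2, and 2 of them, arpp2a and arpp2a-2, share all 8 values. On percentile ranks 15 were higher in the leaf, 13 of them absent in the controls. The median difference was 0.27 in the controls and -1.28 under drought. rps28 (GRMZM2G030293), of the small ribosomal subunit, had 32.4 and 34.5 FPKM in the droughted ovary and 137 to 172 FPKM in the other 6 libraries (-2.21 ± 0.14 and -0.25, limma adjusted p = 0.000403). L29 (GRMZM2G028216) and rpl19 (GRMZM2G171444), of the large subunit, were higher in the leaf in both conditions, with -3.77 ± 0.20 and -2.73 ± 0.12 under drought and -2.30 and -2.67 in the controls. For rpl19 the 4 ovary libraries lay between 25.6 and 29.4 FPKM and the 4 leaf libraries between 157 and 179 FPKM. The ovary call was arpp1a, listed at 0 in both droughted leaf libraries.

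Lignin, starch and ethylene genes added smaller leaf-side groups. Of 11 lignin and phenylpropanoid genes, 8 were higher in the leaf and 1 in the ovary under drought, against 5 and 2 in the controls, and 5 of the 8 were absent in the controls. With 1 more gene that is in both tables but under the filter, the list summed to 133 and 189.7 FPKM in the droughted ovary, where 2 of the 12 were listed at 0 in both libraries, and to 462 to 736 FPKM in the other 6 libraries. BM1 (GRMZM5G844562, brown midrib), of monolignol synthesis, had 3.18 and 2.45 against 98.4 and 99.0 FPKM under drought (-4.87 ± 0.21, controls -1.13). ccoaomt1 (GRMZM2G127948), which methylates lignin precursors, had 35.4 and 52.0 against 182 and 196 FPKM (-2.29 ± 0.24, controls 0.52, limma adjusted p = 0.000785). Of 15 starch genes 6 were higher in the leaf and 2 in the ovary under drought, against 1 and 6 in the controls. The starch synthase gene GBSSIIa (GRMZM2G008263) had 2.33 and 0.920 against 16.3 and 23.1 FPKM under drought and 27.2 and 18.0 FPKM against 16.2 and 26.2 FPKM in the controls (-3.15 ± 0.36 and -0.04, limma adjusted p = 0.00242). Of 7 ethylene genes 3 were higher in the leaf under drought and none in either tissue in the controls.

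Of 13 sucrose and hexose genes 8 were higher in the leaf and 2 in the ovary under drought, against 4 and 2 in the controls. The invertase gene IVR1 (GRMZM2G394450), of sucrose cleavage, had 0.349 and 1.18 against 8.64 and 9.57 FPKM under drought, and 7.42 and 6.13 FPKM against 6.37 and 4.61 FPKM in the controls. Its difference was -2.68 ± 0.24 under drought and 0.14 in the controls (limma adjusted p = 0.000765). The cell wall invertase gene incw1 (GRMZM2G139300) was higher in the leaf in both conditions, with values of -2.33 ± 0.37 and -2.27 (limma adjusted p = 0.925 for the drought minus control difference).

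**Figure D4:**
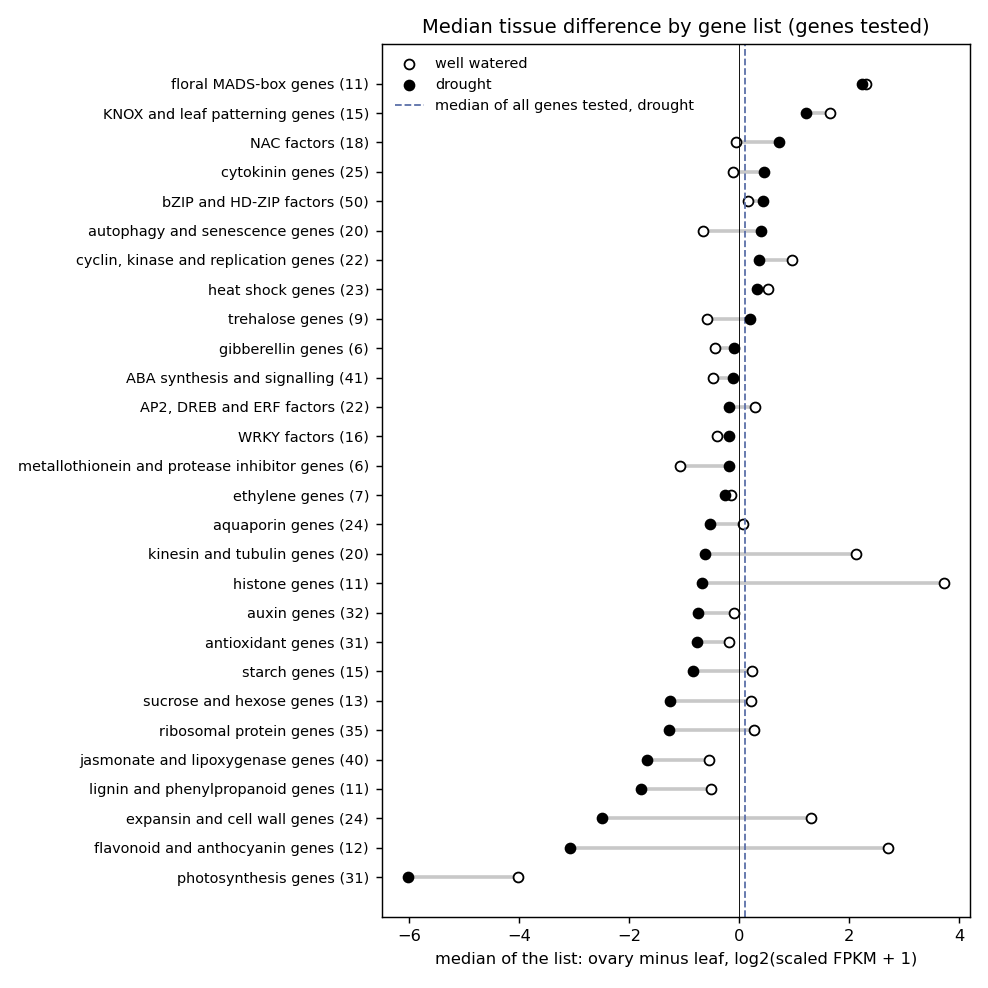
Median tissue difference (ovary minus leaf, log2(scaled FPKM + 1)) of each gene list with at least 5 genes analysed (number in brackets), in the controls (open circles) and under drought (filled circles). The dashed line is the drought median of all genes analysed, 0.11; histone genes moved from 3.72 to -0.68 and photosynthesis genes from -4.01 to -6.01.

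Histone genes lost their tissue difference under drought. All 11 analysed were higher in the ovary in the controls and all 11 lost that difference, or 10 and 10 without leaf control 2; on percentile ranks 7 were higher in the control ovary and 6 lost it. Their median difference was 3.72 in the controls and -0.68 under drought. Under drought none was higher in the ovary, and 2 were higher in the leaf: an H4 gene (H4C13, GRMZM2G084195), at 27.5 and 14.9 against 41.5 and 74.5 FPKM, and his2a1 (GRMZM2G305046), at 21.4 and 15.0 against 33.8 and 51.6 FPKM. The same H4 gene had 819 and 993 FPKM in the ovary controls and 87.8 and 33.7 FPKM in the leaf controls (limma adjusted p = 0.000799 for the drought minus control difference). These histone genes fall outside the rule for naming and were chosen after their values were seen. Cyclins and their kinases drive the cell cycle. Of 22 cyclin, kinase and replication genes 11 were higher in the ovary in the controls and 5 under drought, with 1 higher in the leaf, and 7 of the 11 were lost. Among all genes analysed 20.5% were higher in the ovary in the controls and 19.6% under drought, so the drought count is near the background. cyclin9 (GRMZM2G017081) had 4.24 and 4.53 against 0.439 and 0.266 FPKM under drought, and 11.3 and 11.8 FPKM against 0.410 and 0.581 FPKM in the controls (1.90 ± 0.16 and 2.98, limma adjusted p = 0.00731). The drought minus control difference of cyclin9 did not pass with pseudocounts of 0.1 and 0.01 (adjusted p = 0.0928 and 0.156) or after quantile normalization (adjusted p = 0.0672). On the other side, LOL3 (GRMZM2G120079) lost a leaf-side difference: its ovary controls stood at 12 and 1.16 FPKM, and its other 6 libraries between 72.6 and 323 FPKM (-0.63 ± 0.75 under drought and -5.63 in the controls, limma adjusted p = 0.00731).

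Jasmonate is a hormone of wounding and defence, and lipoxygenases start its synthesis. Of 40 genes of both groups 26 were higher in the leaf and 1 in the ovary under drought, against 14 and 5 in the controls, and 10 of the 26 were absent in the controls. The 3 largest differences were those of TIFY genes, the family that holds the JAZ repressors of jasmonate signalling. TIFY9 (GRMZM2G145412) had 0.750 and 0.934 FPKM in the droughted ovary and 142 and 256 FPKM in the droughted leaf, with 2.19 and 0.182 FPKM and 15.3 and 10.7 FPKM in the controls. Its difference was -6.83 ± 0.45 under drought and -2.94 in the controls (limma adjusted p = 0.00248). TIFY25 (GRMZM2G116614) gave -6.89 ± 0.26 and -4.38, and TIFY28 (GRMZM2G036351) -6.42 ± 0.59 and -3.08. With a pseudocount of 0.01 the drought minus control differences of TIFY9 and TIFY28 did not pass limma (adjusted p = 0.072 and 0.149). That of TIFY28 also failed with 0.1, on percentile ranks and without leaf drought 2 (adjusted p = 0.105, 0.0569 and 0.0521), and that of TIFY25 on ranks (adjusted p = 0.0828). In TIFY9 the droughted leaf held the highest libraries, and the ovary libraries were low in both conditions. The AP2 family gene DBP4 (GRMZM2G380377) had that pattern too, with 35.7 and 46.6 FPKM in the droughted leaf and 0.162 to 3.30 FPKM in the other 6 libraries (-4.70 ± 0.38 and -1.17, limma adjusted p = 0.00176, and 0.067 with a pseudocount of 0.01).

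Aquaporins, antioxidant enzymes and the other transcription factor lists gave mixed counts. Among all genes analysed 19.6% were higher in the ovary and 21.2% in the leaf under drought. The ovary counts of aquaporin, WRKY and heat shock genes and the leaf count of bZIP and HD-ZIP genes are near those shares. Of 24 aquaporins, which pass water or small solutes through membranes, 5 were higher in the ovary and 11 in the leaf under drought, against 8 and 9 in the controls. The silicon channel gene Lsi6 (GRMZM2G081239) had 0.631 and 1.54 against 154 and 134 FPKM under drought, and 13.9 and 24.8 FPKM against 161 and 89.3 FPKM in the controls (-6.28 ± 0.35 and -2.77, limma adjusted p = 0.0014). PIP2-6 (GRMZM2G047368) gave -6.00 ± 0.27 and -6.03. Of 31 antioxidant genes 8 were higher in the ovary and 12 in the leaf under drought, against 3 and 7 in the controls. The glutathione transferase gene gst1 (GRMZM2G116273) had 48.2 and 50.4 FPKM in the droughted ovary and 408 to 1101 FPKM in the other 6 libraries (-4.53 ± 0.29 under drought, limma adjusted p = 0.000643). The ovary and leaf counts under drought were 16 and 11 of 50 bZIP and HD-ZIP genes, 3 and 7 of 22 AP2, DREB and ERF genes, 3 and 5 of 16 WRKY genes and 5 and 3 of 23 heat shock genes. They were 2 and 1 of 9 trehalose genes, 0 and 2 of 6 gibberellin genes, 1 and 2 of 6 metallothionein and protease inhibitor genes and 0 and 1 of 3 galactinol, raffinose and inositol genes. The trehalose phosphate synthase gene TPS4 (GRMZM2G527891) was absent in the controls, with 79.2 and 111 against 23.4 and 19.6 FPKM under drought (1.90 ± 0.20, controls -0.93, limma adjusted p = 0.000361).

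Some tissue differences under drought rest on zeros, and these are given by library values with no fold. Of the tested genes 253 were listed at 0 in both droughted ovaries and 98 in both droughted leaf libraries. At 0 in the droughted ovary but not in the droughted leaf were 249, and none of them was at 0 in both ovary controls. The translation factor gene eif5a (GRMZM2G113696) was listed at 0 in both droughted ovaries and at 446 and 487 FPKM in the ovary controls, 538 and 543 FPKM in the droughted leaf and 578 and 556 FPKM in the leaf controls. The 14-3-3 gene GF14-12 (GRMZM2G078641) was listed at 0 in both droughted ovaries and at 168 to 362 FPKM in the other 6 libraries. The chlorophyll-binding protein gene cab-m9 (GRMZM2G155216) was at 0 there and at 85.8 and 178 FPKM in the ovary controls. A1 (GRMZM2G026930), the reductase of anthocyanin synthesis, was at 0 there and at 801 and 1319 FPKM in the ovary controls. Of 94 genes at 0 in the droughted leaf but not in the droughted ovary, none was at 0 in both leaf controls: the ribosomal protein gene arpp1a (GRMZM2G032315) was listed at 0 in both droughted leaf libraries and at 133 and 116 FPKM in the leaf controls, and tbp2 (GRMZM2G161418), of the TATA-binding protein, at 0 against 18.3 and 16.3 FPKM. An exact 0 can be a failed estimate rather than a level, which was not tested for these genes.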

How the data were processed

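Polyadenylated RNA was sequenced on an Illumina Genome Analyser, per the labels' protocols, and groups were taken from the sample titles. The values are FPKM, deposited by the authors in 1 table per tissue. The tools named, per the submitters' processing notes, are TopHat 1.2.0, Cufflinks 1.0.2 and CASAVA 1.8. For their settings, the genome build and the strandedness the status is: not given in the sources used here. Overlapping genes and near-identical copies are uncertain. Read counts are not used here, so depth is unknown: in low genes at most 3.34% of values shared the most common step, and whole reads could not be recovered. The series text counts 1 biological replicate per condition where the protocol counts 2; each column was used as a replicate.

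Gene IDs were named through RefSeq synonyms (assembly Zm-B73-REFERENCE-NAM-5.0); 15185 of the 23586 shared IDs matched, 422 of them more than 1 gene, and 2043 had a symbol. The 33 gene lists were matched on symbols. The comparison, the lists and the named genes' rule were chosen with earlier results of these data known.

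FPKM was scaled by the 75th percentile over the genes tested, zeros included, and log2(scaled FPKM + 1) was fitted with limma 3.58.1 under R 4.3.3 (lmFit and eBayes, trended prior; 4 group means, 4 residual degrees of freedom, prior 3.47), checked on simulated data. Named genes have a symbol and are not at 0 in both libraries of a group: the 8 largest drought differences each way, the 8 largest drought minus control differences each way among those absent in the controls (4 among the reversed and 4 among the lost), and the 3 largest in each list with at least 3 calls, of which some are left out. Genes at 0 were chosen by level, 5 each way, of which some are left out. Alternatives were pseudocounts of 0.1 and 0.01, no filter, a minimum of 5 FPKM, 4 scalings, percentile ranks, a 4-fold minimum, genes at 0 left out, eBayes without trend, a replicate block, a 2-fold minimum and each library left out. Replicate numbers were not used to pair the libraries in the main fit.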

Additional observations from a re-analysis of the deposited data

Results flagged for a closer look

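The drought change differed between the tissues by the limma test of the difference itself (Benjamini-Hochberg adjusted p under 0.05). This held for 4704 genes in the direction of the ovary and 5758 in the direction of the leaf. Which side was larger depended on the scaling. The ovary and leaf counts were 4899 and 5602 without scaling and 5401 and 5301 with median scaling. They were 5760 and 4993 after quantile normalization and 5702 and 4973 on percentile ranks. Among the named genes the drought minus control difference, which equals the ovary change minus the leaf change, was 6.00 for sat1, 4.79 for ciszog1, 4.33 for mtl2, 4.28 for dhn1, 4.27 for NAC1 (GRMZM2G347043), 4.09 for AUX10, 3.88 for CISZOG2 and 3.79 for RIP. It was 5.00 for LOL3, whose leaf-side difference in the controls was lost under drought. Toward the leaf it was -8.35 for CER1 (GRMZM2G066578), -7.52 for prp2, -7.50 for CHI, -6.46 for CGTb, -6.24 for BURP10, -5.99 for glu1, -5.96 for expB4 and -5.93 for sm1. All 17 passed without leaf control 2, the library that stood apart (limma adjusted p = 0.0225 for LOL3, the highest).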

How the results depend on the processing

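The counts over all genes analysed stayed within 1.5 times of the reported ones under the pseudocounts, filters, scalings, eBayes without trend and the replicate block. Counts within lists moved further: without scaling, drought calls went from 7 to 4 for kinesin and tubulin genes in the leaf and, in the ovary, from 3 to 5 for WRKY and from 5 to 8 for heat shock genes. With a pseudocount of 0.1, ovary calls of AP2, DREB and ERF genes went from 3 to 5. On percentile ranks ABA genes had 14 ovary calls in place of 9, and sucrose and hexose genes 5 leaf calls in place of 8. Auxin genes higher in the control ovary were 8 without scaling in place of 3, and jasmonate and lipoxygenase genes higher there 8 without leaf control 1 in place of 5. Expansin and cell wall genes that lost an ovary side were 8 without leaf control 2 in place of 13. With a 4-fold minimum the ovary and leaf counts were 1114 and 2163 under drought, 1684 and 1787 in the controls, 668 and 940 absent in the controls, 31 and 96 reversed, 1206 and 580 lost, and 353 and 1060 in both conditions. On percentile ranks, with a minimum of 10 percentile points, 7073 genes were higher in the ovary under drought, 554 and 772 were reversed, 1716 leaf-side differences were lost and 3230 ovary-side ones were in both conditions. The cause was not tested.

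Leaving out 1 library at a time gave 4323 to 4403 and 4693 to 4790 genes under drought, 4225 to 5050 and 3765 to 3989 in the controls, 3157 to 4818 and 4289 to 5844 for the drought minus control difference, 1527 to 1935 and 1648 to 1990 absent in the controls, 167 to 233 and 390 to 630 reversed, 1886 to 2679 and 828 to 1227 lost, and 1650 to 1793 and 2346 to 2463 in both. The lone library of a group is then assumed to vary like the others.

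Among differences absent in the controls, 50.5% were higher in the ovary, 60.0% after quantile normalization (2403 and 1602 genes) and 59.6% on ranks. The median drought difference of all genes was 0.11, and 0.26 without scaling. On percentile ranks the drought minus control difference turned for PP2C2 (-8.23 points, adjusted p = 0.0783) and TPS5 (0.72 points, adjusted p = 0.799).

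Same-numbered libraries deviated from their group means with correlations of -0.201 to 0.115. These correlations cannot exclude that same-numbered libraries share plants or a batch, which the labels do not give. With the replicate number as a block 4373 and 5527 genes passed for the drought minus control difference, and 1878 and 1894 were absent in the controls. With 2 libraries per group, unknown depth and separate tables, small differences and low genes are the least certain.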
